A study of Mus musculus with 20 samples.

Results

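The serpin family is described here in the livers of 20 mice, as 40 Serpin genes of 18193 genes that had a probe set of their own. Members were every gene whose symbol is Serpin followed by a clade letter from a to i and a digit, the pseudogene Serpina4-ps1 included. Where several probe sets read a gene, that with the highest mean over the 20 arrays was used, and no measured difference entered the choice. Livers came from male C57BL/6J mice, an inbred strain, that arrived at 3 weeks of age and are labelled as 8 weeks old. After acclimation on a low-fat diet, 10 mice (HFD) received a diet with 45 kcal% fat for 4 weeks, and 10 mice (MSXH) received the same diet with 0.05% of a maple syrup extract. All 20 were dissected on day 30, fasted for 16 h. Low-fat and lower-dose groups named in the protocol were not analysed here, so each comparison is between 2 groups that both ate the high-fat diet.

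Serpins are proteins of a shared fold in which an exposed loop serves as bait for a protease. The protease cuts the loop, the serpin snaps into a new shape, and both are trapped together. The liver secretes the serpins that restrain clotting, fibrinolysis, complement and elastase in blood, and some members have lost inhibition and instead carry hormones or help fold collagen. Clade A holds the secreted antitrypsin-like proteins, clade B the intracellular ones, and clades C, D, F, G, H and I hold antithrombin, heparin cofactor, antiplasmin and its relatives, the complement C1 inhibitor, the collagen chaperone and neuroserpin.

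In these livers 0 of the 22 Serpin genes bright enough to test passed the threshold between the diets, as was so for 0 of all 11728 genes tested. Between mice, Serpina6, Serpina12, Serpina11, Serpina4-ps1 and Serpinh1 were high where Serpina10 was high and low where it was low, and Serpina3n ran against it, with absolute r from 0.70 to 0.79. Without the 2 mice farthest from the Serpina10 median, r was -0.39 with Serpina3n, 0.56 with Serpina11 and from 0.68 to 0.84 with the others. The pairs with Serpina3n and Serpina11 did not pass adjustment by Spearman's rho (adjusted permutation p 0.145 and 0.089). After quantile normalization of the arrays each of these pairs lay below 0.7, and that with Serpina11 turned negative (-0.36). Serpina10, 6, 11, 12, 4-ps1 and 3n all lie in 1 cluster of clade A genes on chromosome 12.

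The start regions of 3 of these cluster genes are shown because, in the values as deposited, Serpina11 and Serpina12 varied with Serpina10 and Serpina3n against it. Each runs from 250 bases before to 50 bases after the gene start, 5′ to 3′ on the gene's strand, from RefSeq on mouse build GRCm38.p6. Capitals mark a motif match. In Serpina11 (chr12:103989908-103990207, minus strand) it is the TTCNNNGAA pattern of STAT factors, whose first base is at -51 from the gene start. In Serpina12 (chr12:104044394-104044693, minus strand) it is the TTGCNNAA pattern of C/EBP factors, at -90. In Serpina3n (chr12:104406458-104406757, plus strand) it is AGAACA, the reverse complement of the glucocorticoid receptor pattern TGTTCT, at -183.
Serpina11: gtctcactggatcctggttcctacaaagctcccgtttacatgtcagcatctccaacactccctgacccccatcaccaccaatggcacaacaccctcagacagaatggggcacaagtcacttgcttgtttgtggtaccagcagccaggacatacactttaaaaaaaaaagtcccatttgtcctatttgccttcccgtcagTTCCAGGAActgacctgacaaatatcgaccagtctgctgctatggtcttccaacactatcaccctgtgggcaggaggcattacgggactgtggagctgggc
Serpina12: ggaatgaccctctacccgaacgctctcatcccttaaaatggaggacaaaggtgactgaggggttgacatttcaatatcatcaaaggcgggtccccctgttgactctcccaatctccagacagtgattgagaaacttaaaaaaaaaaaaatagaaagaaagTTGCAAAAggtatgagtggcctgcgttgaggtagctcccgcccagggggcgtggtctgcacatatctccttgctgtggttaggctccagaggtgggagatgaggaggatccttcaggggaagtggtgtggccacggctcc
Serpina3n: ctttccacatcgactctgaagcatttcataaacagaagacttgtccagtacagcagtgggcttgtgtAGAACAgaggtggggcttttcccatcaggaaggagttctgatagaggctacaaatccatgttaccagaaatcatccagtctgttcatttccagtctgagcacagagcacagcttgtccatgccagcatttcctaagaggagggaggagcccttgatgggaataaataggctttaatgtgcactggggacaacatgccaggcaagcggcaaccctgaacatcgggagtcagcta

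Of the 22 genes tested, 17 had such a sequence, with 19 start regions among them; Serpina10, Serpina4-ps1, Serpina6, Serpinb1a and Serping1 did not. Both strands were searched, and the patterns may overlap. TTCNNNGAA was found in 4 of the 19 (Serpina11 with 2 overlapping entries, Serpina3i and Serpinb6a) against 8.3% of 32851 mouse start regions of the same length. TTGCNNAA was found in 3 (Serpina12, Serpina1b and Serpinc1) against 10.8%. GTTAAT, a core of HNF1 sites, was found in 2 (Serpina1b and Serpina1c) against 7.1%. TGTTCT was found in 7 (Serpina1b, Serpina1c, Serpina3i, Serpina3n, Serpinb6e, Serpinb9b and Serpinf2) against 19%. The E-box CACGTG, at 7.15% of all start regions, and TATAAA, at 13.6%, were found in 0 of the 19. The start regions of Serpina1b and Serpina1c, a pair of antitrypsin genes, were identical at 276 of 298 aligned bases (92.6%). A match is a description of letters and not of binding.

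The deposited values were read as log2 levels and varied very little between arrays: the median SD over all probe sets was 9.33e-06, and array medians lay between 6.50534 and 6.50552. How far this scale compresses a real change is unknown, so no difference can be read as a fold change. Differences are therefore MSXH minus HFD as Hedges' g, which counts them in units of the SD within groups, with a 95% interval. Genes with a mean of at least 6.505, the median over probe sets, were tested, 11728 in all. The labels call the arrays biological replicates, and 0 pairs of arrays held identical values. The tissue label was checked on marker genes, of which all 7 hepatocyte markers passed the filter, with levels from 11.4 to 14.7. Of markers of other tissues with a probe set of their own, 3 of 4 for exocrine pancreas (levels up to 8.66) and 2 of 4 for skin (up to 9.18) also passed, and 1 of 7 for neutrophils did. Passing the filter is therefore no proof of expression.

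Members were spread over most of the scale. Clade A had 14 members with mean levels from 5.61 to 14.6, of which 9 were tested. Clade B had 18, from 5.40 to 8.16, and 6 were tested. The other 8 genes were Serpinc1, Serpind1, Serpinf1, Serpinf2, Serping1, Serpinh1, Serpini1 and Serpini2, and all but Serpini2 (6.20) passed. Just inside the filter lay Serpinb9b at 6.515 and Serpinb1a at 6.558, and just outside it Serpinb3a at 6.395 and Serpinb6c at 6.301. Of 24 liver serpins and relatives listed for the report, 16 had a probe set of their own. The 18 members below the filter included Serpina7, thyroxine-binding globulin, at 5.61 and Serpina5, the protein C inhibitor, at 5.65. Levels describe each probe set and do not order genes by abundance, since probe sets differ in brightness.

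**Figure D1:**
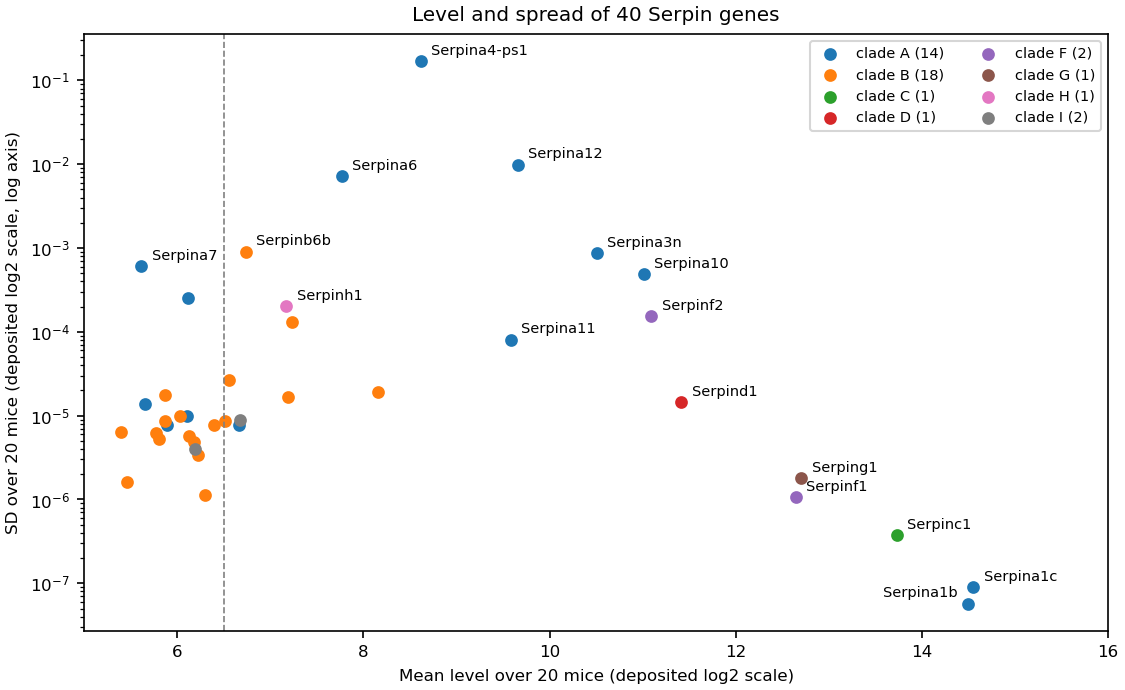
Mean level (x axis, deposited log2 scale) and SD over 20 mice (y axis, log scale) of the 40 Serpin genes, 1 point a gene, coloured by clade; the dashed line is the filter at 6.505. SDs run from 5.71e-08 for Serpina1b to 0.171 for Serpina4-ps1, and the 5 genes with the highest levels have SDs of at most 1.81e-06.

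The spread between mice ran over several orders of magnitude. Serpina4-ps1 had an SD of 0.171, the third largest of the 11728 genes, and was the only member with a range over 0.1 (0.524). Among all genes tested 26 had such a range, which is 0.222%. Serpina12 ranked 78 by SD (0.0099), Serpina6 98 (0.00715), Serpinb6b 361 (0.000906), Serpina3n 368 (0.000874) and Serpina10 547 (0.000485). At the other end, Serpina1b kept the value 14.498020 in all 20 mice to 6 decimals (SD 5.71e-08), and Serpina1c had an SD of 9.0e-08, Serpinc1 3.76e-07, Serpinf1 1.06e-06 and Serping1 1.81e-06. The order of SDs is a property of the deposited values, in which a gene's compression is unknown.

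The comparison between diets asks whether the extract changed liver expression under high-fat feeding. By limma with Benjamini-Hochberg adjustment, 0% of the 11728 genes were called (smallest adjusted p 0.9998), and a Wilcoxon test also called 0. At an unadjusted p under 0.05, limma had 425 genes, or 3.62%, the Wilcoxon test had 399, and 0 of the 22 Serpin genes were among them by either. Of those 22, 16 had higher and 6 lower means in MSXH, with a median g of 0.163 and a range from -0.61 to 0.562. Over all genes the median was -0.00692, with 5792 higher and 5934 lower. The split of the members followed the scaling: it was 20 higher of 22 (median g 0.309) with arrays shifted to a common median, and 7 of 17 (median g -0.00642) after quantile normalization. With the shift, the near-constant members Serpina1b, Serpina1c, Serpinc1, Serpinf1 and Serping1 all had g from 0.307 to 0.31. The split of all genes under these scalings is not given here, so neither count is read as a result about serpins. In whole liver, fewer cells of a type and less RNA per cell cannot be told apart.

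**Figure D2:**
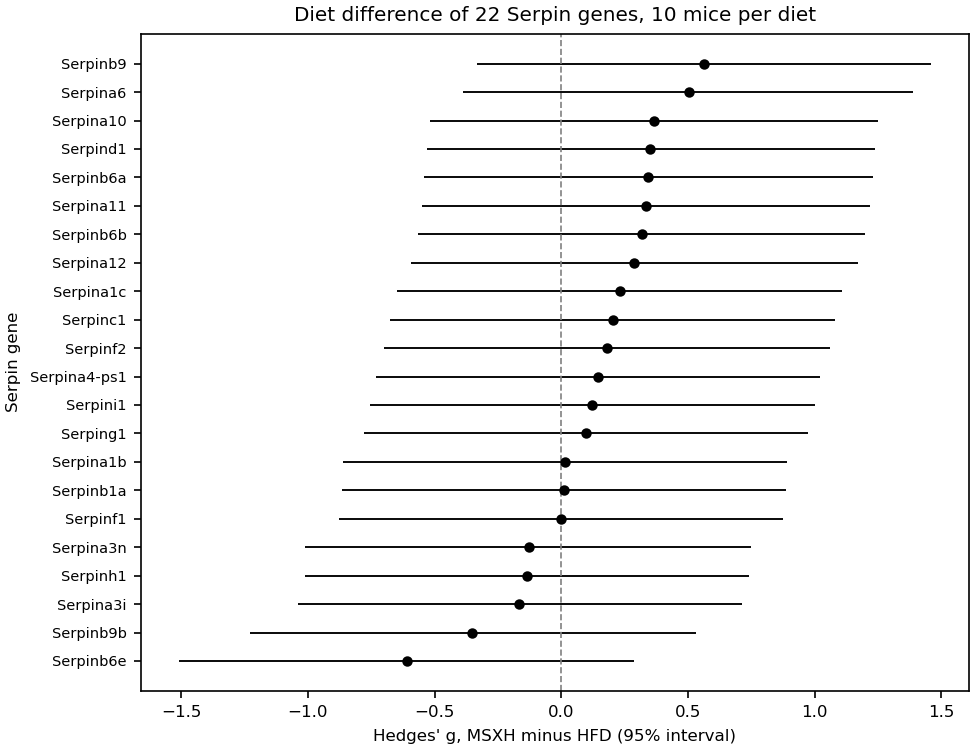
Hedges' g (x axis, MSXH minus HFD, in SD units) of the 22 Serpin genes tested, with 10 mice per diet; points are estimates and lines 95% intervals. All 22 intervals include 0, from Serpinb9 at 0.562 to Serpinb6e at -0.61.

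Among the hormone carriers, Serpina6 encodes corticosteroid-binding globulin, which carries glucocorticoids in blood. Its level was 7.757807 at the lowest, 7.765868 at the median and 7.781070 at the highest HFD mouse, and 7.761169, 7.772190 and 7.782557 in MSXH. The groups overlapped almost throughout, although 8 of 10 MSXH mice exceeded the median of HFD (g = 0.505, 95% interval -0.386 to 1.39, unadjusted limma p = 0.245). Serpina7, below the filter, had 5.614026, 5.614460 and 5.615779 in HFD and 5.614011, 5.614938 and 5.615735 in MSXH (g = 0.358, -0.525 to 1.24).

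Serpina4-ps1 is a pseudogene of the kallistatin group. Its HFD mice had a lowest level of 8.363872, a median of 8.615116 and a highest of 8.887132, and MSXH mice had 8.387995, 8.555356 and 8.887636. The groups covered the same range but filled it differently: 3 MSXH mice and 1 HFD mouse lay at or above 8.881304, and the other 7 MSXH mice lay at or below 8.581764. The mean was higher in MSXH (g = 0.146, -0.732 to 1.02, unadjusted limma p = 0.733) although 3 of 10 MSXH mice exceeded the HFD median. All 3 of its probe sets gave the pattern, with r between 0.980 and 0.998 for each pair, ranges of 0.517, 0.873 and 0.524, and g from 0.146 to 0.274.

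Serpina12 encodes vaspin, named as a serpin of visceral fat that inhibits a tissue kallikrein. Its HFD levels were 9.637164 at the lowest, 9.658978 at the median and 9.670599 at the highest, and 9.642092, 9.664689 and 9.670012 in MSXH. Most MSXH mice stood near the top of the range and 3 near the bottom, and the groups overlapped (g = 0.288, -0.593 to 1.17, unadjusted limma p = 0.502). A second probe set of Serpina12, with a level of 6.15, followed it with r = 0.758.

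Serpina10 encodes the protein Z-dependent inhibitor of clotting factor X. Its HFD mice ran from 11.012028 over a median of 11.013014 to 11.014034, and MSXH mice from 11.012678 over 11.013421 to 11.013815. Both extremes were HFD mice, replicates 9 and 3, and 7 of 10 MSXH mice exceeded the median of HFD (g = 0.365, -0.518 to 1.25, unadjusted limma p = 0.396). The sign of this g turned after quantile normalization (-0.237). Serpina11, a secreted clade A protein, had 9.584651, 9.584837 and 9.584954 in HFD and 9.584715, 9.584877 and 9.584934 in MSXH (g = 0.333, -0.549 to 1.22). Serpina5, below the filter, ran from 5.650976 over 5.651001 to 5.651028 in HFD and from 5.650985 over 5.651005 to 5.651019 in MSXH (g = 0.36, -0.524 to 1.24). The groups overlapped for each of these genes.

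Serpina3n is a mouse counterpart of antichymotrypsin and is known as an acute-phase gene. HFD mice spanned 10.508204 to 10.512494 with a median of 10.510829, and MSXH mice 10.509704 to 10.511462 with a median of 10.510670. MSXH values lay inside the HFD range (g = -0.128, -1.01 to 0.749, unadjusted limma p = 0.764). Both HFD extremes were the mice at the extremes of Serpina10, in reverse: replicate 3 was lowest and replicate 9 highest.

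**Figure D3:**
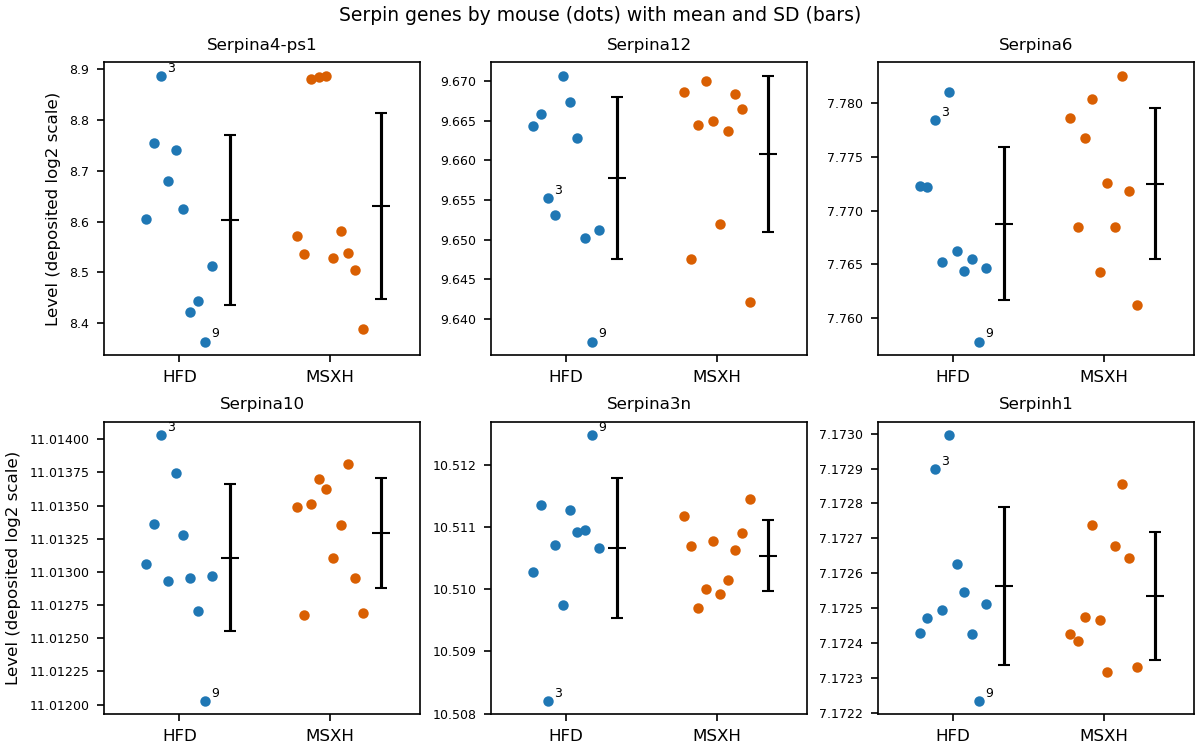
Level by mouse (y axis, deposited log2 scale, a separate range per panel) of 6 Serpin genes in HFD and MSXH; dots are mice, bars show the mean and SD (n = 10), and HFD replicates 3 and 9 are numbered. HFD replicate 9 is the lowest HFD mouse in every panel but that of Serpina3n, where it is the highest.

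The antitrypsin genes Serpina1b and Serpina1c, whose proteins protect tissue from neutrophil elastase, could not be compared in practice. Serpina1b had a range of 2.2e-07 and g = 0.0163 (-0.86 to 0.893), and Serpina1c a range of 3.0e-07, the value 14.552775 in each mouse, and g = 0.23 (-0.65 to 1.11). limma's prior SD of 7.36e-06 was far above their spread, which by itself sets their p near 1. Near-identical antitrypsin copies may share signal, so these values are uncertain as to gene. A probe set annotated to Serpina1d and Serpina1a had g = -0.751. Another, annotated to Serpina1e, Serpina1c and Serpina1b, had g = -0.705. No interval was computed for either. Both were opposite in sign to the single-gene probe sets, but the g of Serpina1b itself turned to -0.23 without MSXH replicate 1.

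The inhibitors of clotting, fibrinolysis and complement also overlapped between diets. Serpinc1, antithrombin, ran from 13.729639 to 13.729640 in both groups (g = 0.205, -0.674 to 1.08). Serpind1, heparin cofactor, ran from 11.413629 over a median of 11.413669 to 11.413683 in HFD and from 11.413651 over 11.413673 to 11.413687 in MSXH (g = 0.352, -0.531 to 1.24). Serpinf2, antiplasmin, ran from 11.094724 over 11.094844 to 11.094989 in HFD and from 11.094505 over 11.094891 to 11.095203 in MSXH (g = 0.181, -0.698 to 1.06). MSXH held both extremes of Serpinf2, whose g turned to -0.101 after quantile normalization. Serpinf1, pigment epithelium-derived factor, ran from 12.643166 to 12.643169 in both groups (g = -0.000882, -0.877 to 0.876), and its other probe set had g = -0.496 (r = 0.682 between them). Serping1, the C1 inhibitor of complement, ran from 12.702683 to 12.702687 in HFD and from 12.702680 to 12.702688 in MSXH (g = 0.0967, -0.78 to 0.974).

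Serpinh1 encodes the collagen chaperone of the endoplasmic reticulum. HFD mice ran from 7.172234 over 7.172503 to 7.172997 and MSXH mice from 7.172317 over 7.172470 to 7.172857, with overlap (g = -0.137, -1.01 to 0.74). Its other probe set followed it between mice (r = 0.961) but had g = 0.165. Serpini1, neuroserpin, had g = 0.123 (-0.754 to 1.00), and its other probe sets did not track it (r = -0.0278 and -0.276).

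Of the 6 clade B genes tested, 4 had higher and 2 lower means in MSXH. Serpinb9, the intracellular inhibitor of granzyme B, had the largest g of the members tested (0.562, -0.332 to 1.46, unadjusted limma p = 0.198), with 8 of 10 MSXH mice above the median of HFD. Its HFD levels were 7.237464, 7.237605 and 7.237886 at the lowest, median and highest mouse and its MSXH levels 7.237426, 7.237779 and 7.237847. Serpinb6e, of a mouse-expanded group, had the lowest (-0.61, -1.51 to 0.287, unadjusted limma p = 0.165), and 2 of 10 MSXH mice exceeded the median of HFD. Serpinb6b varied most within the clade, from 6.737598 over 6.738949 to 6.739356 in HFD and from 6.737618 over 6.738858 to 6.740789 in MSXH (g = 0.318, -0.564 to 1.20). Groups overlapped for all of them.

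Without the level filter, 2 of 40 members had an unadjusted limma p under 0.05, against 4.29% of 18193 genes, and neither passed adjustment (adjusted p 0.9993). Serpinb2, an inhibitor known from activated macrophages, ran from 5.465537 over 5.465538 to 5.465542 in HFD and from 5.465539 over 5.465541 to 5.465542 in MSXH. All 10 MSXH mice exceeded the median of HFD (g = 1.47, 0.485 to 2.46, unadjusted limma p = 0.0169). Serpinb9g ran from 5.397926 over 5.397940 to 5.397946 in HFD and from 5.397940 over 5.397944 to 5.397954 in MSXH, with 9 of 10 above (g = 1.01, 0.0755 to 1.94, unadjusted limma p = 0.0300). Over all 40 members, 26 had higher means in MSXH, and the lowest g was that of Serpini2 (-0.813, -1.72 to 0.0991). The split of all 18193 genes is not given here, so the count of 26 is not read as a result about serpins. The levels of Serpinb2 and Serpinb9g lie among the dimmest of the members, where signal over background is not known.

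Co-variation between mice was measured as Pearson's r over the 20 mice after the mean of each diet was removed, with 231 pairs among the 22 genes. At an absolute r of at least 0.7 stood 10 pairs (4.33%), 9 positive and 1 negative, against 0.988% of the 68767128 pairs of all genes tested. The median r of the member pairs was 0.15. Counts and shares moved with the scaling: 75 member pairs (32.5%) against 68.4% of all pairs with arrays shifted to a common median, and 2 of 136 (1.47%) against 1.88% after quantile normalization. The members' share exceeded that of all genes only in the values as deposited, among these 3 scalings. By permutation (100000 draws, 2-sided), 21 pairs had an adjusted p under 0.05 over the 231 pairs, and 8 did by Spearman's rho. The share of all gene pairs at that adjusted p was not computed, so neither count is read as a result about serpins. Serpina10 took part in 6 of the 10 pairs at an absolute r of at least 0.7.

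**Figure D4:**
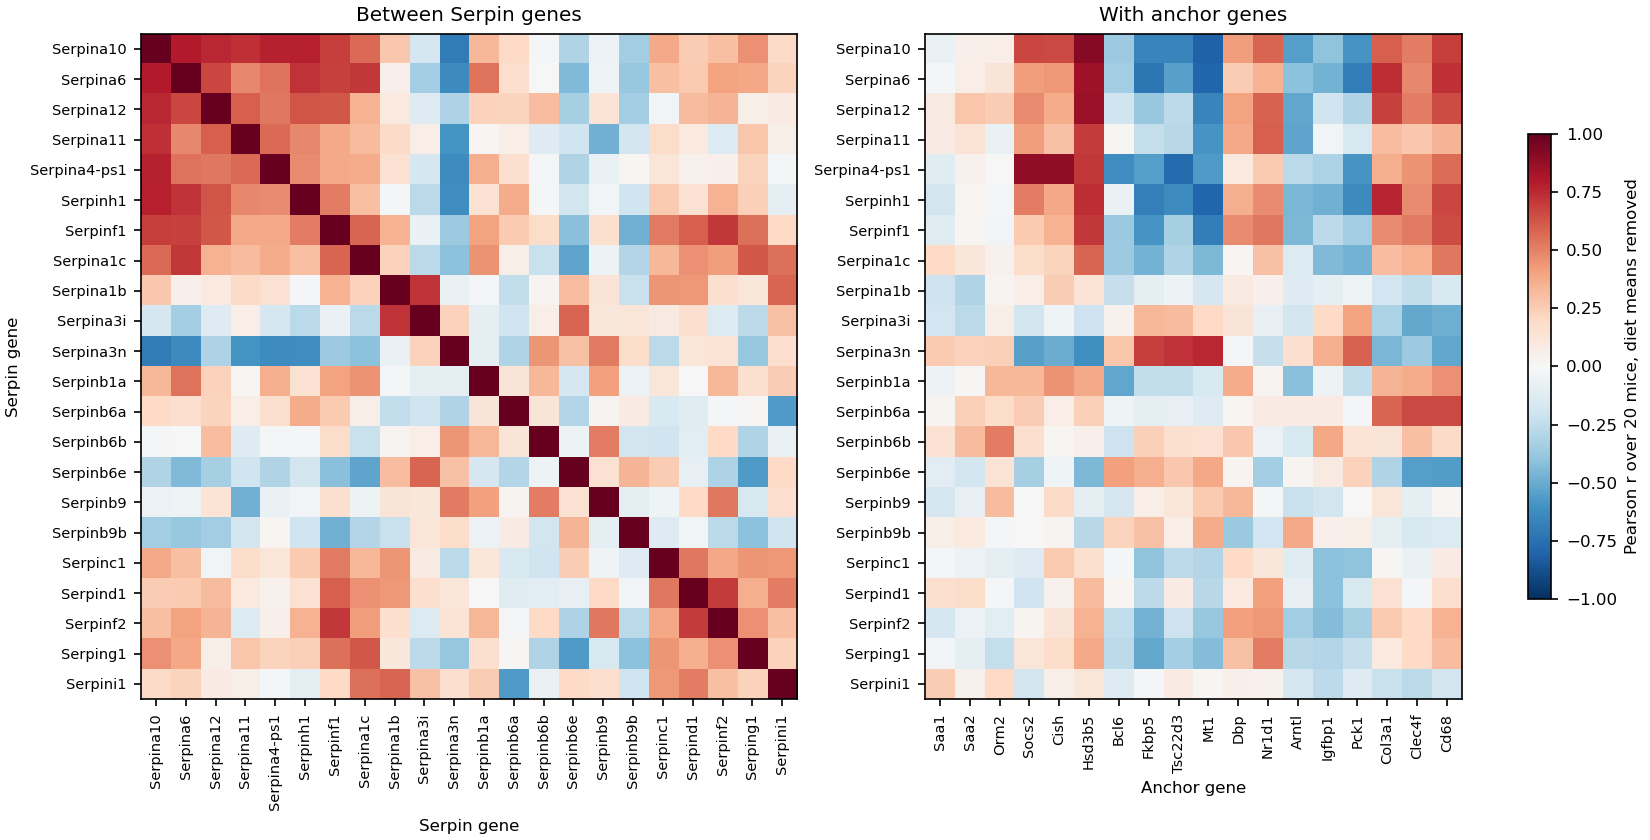
Pearson r over 20 mice with diet means removed (colour, from -1 to 1), between the 22 Serpin genes (left) and between them and 18 anchor genes (right). The block at the upper left holds Serpina10, 6, 12, 11, 4-ps1 and Serpinh1, and the row of Serpina3n is mostly of the opposite colour.

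The strongest pair was Serpina10 with Serpina6, the clotting inhibitor with the glucocorticoid carrier, at r = 0.79 (permutation p = 4e-05, adjusted 0.00462). It was 0.91 within HFD and 0.66 within MSXH, rho was 0.72 (permutation p = 0.00052, adjusted 0.0181), and r was 0.72 without the 2 mice farthest from the Serpina10 median and 0.59 after quantile normalization. Serpina10 with Serpinh1 had r = 0.78 (permutation p = 2e-05, adjusted 0.00462; rho 0.72, p = 0.00055, adjusted 0.0181), with 0.89 within HFD, 0.60 within MSXH, 0.68 without the 2 farthest mice and 0.51 after quantile normalization. These genes lie on different chromosomes, 12 and 7. Serpina10 with Serpina4-ps1 had r = 0.77 (permutation p = 6e-05, adjusted 0.00462; rho 0.81, p = 6e-05, adjusted 0.0139), with 0.89 and 0.66 within the diets, 0.69 without the 2 farthest mice and 0.65 after quantile normalization.

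Serpina10 with Serpina12 had r = 0.75 (permutation p = 0.00016, adjusted 0.00924; rho 0.72, p = 0.00048, adjusted 0.0181), with 0.70 within HFD and 0.84 within MSXH, 0.84 without the 2 farthest mice and 0.56 after quantile normalization. Serpina10 with Serpina11 had r = 0.73 (permutation p = 0.00025, adjusted 0.0115), but its rho of 0.60 did not pass (permutation p = 0.00578, adjusted 0.089), and r was 0.56 without the 2 farthest mice and -0.36 after quantile normalization. Serpina1b with Serpina3i had r = 0.72 (permutation p = 0.00039, adjusted 0.0128; rho 0.73, p = 0.00034, adjusted 0.0181), 0.47 within HFD, 0.83 within MSXH and 0.70 without the 2 farthest mice. That pair concerns differences of at most 2.2e-07 in Serpina1b.

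The remaining pairs past 0.7 were Serpina6 with Serpinh1 (0.72), Serpinf1 with Serpinf2 (0.71), Serpina1c with Serpina6 (0.71) and Serpina10 with Serpina3n (-0.70). With arrays shifted to a common median Serpinf1 with Serpinf2 had 0.58 and Serpina1c with Serpina6 0.34, and neither could be computed after quantile normalization, which left Serpinf1 and Serpina1c constant. After it Serpina6 with Serpinh1 had 0.63 and Serpina10 with Serpina3n -0.49. Serpinf1 and Serpinf2 are neighbours on chromosome 11 with 0 coding genes starting between them in RefSeq. Their rho was 0.69 (permutation p = 0.00125, adjusted 0.0361). For the negative pair r was -0.84 within HFD and -0.39 within MSXH, and -0.39 without the 2 farthest mice, with a rho of -0.51 (permutation p = 0.0251, adjusted 0.145). Whether r differed between the diets was not tested.

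In the values as deposited, most of these pairs lay inside the chromosome 12 cluster. Of the 36 pairs among its 9 tested genes 7 (19.4%) reached 0.7, against 3 of the 195 others (1.54%). After quantile normalization Serpina10 had r of 0.59 with Serpina6, 0.65 with Serpina4-ps1, 0.56 with Serpina12, -0.36 with Serpina11 and -0.49 with Serpina3n. Serpina1b with Serpina3i and Serpina1c with Serpina6 could not be computed. Outside the cluster, Serpinh1 then had 0.51 with Serpina10 and 0.63 with Serpina6. In RefSeq order the cluster runs Serpina10, Serpina6, the Serpina1 copies, Serpina11, Serpina9, Serpina12, Serpina4-ps1, Serpina5 and the Serpina3 copies. Serpina10 and Serpina6 are adjacent among coding genes, whereas Serpina3n closes the other end. The difference between these shares was not tested, since pairs that share a gene are not independent.

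HFD replicate 9 was the lowest HFD mouse for 9 of the 22 members (Serpina10, 11, 12, 1c, 4-ps1, 6, b6a, f1 and h1) and the highest for Serpina3n, while 13.2% of all genes tested were lowest in it. HFD replicate 3 was the highest for 8 of the 22, against 15.8% of all genes, and the lowest for Serpina3n. Without HFD replicate 9, 5 pairs stayed at or above 0.7: Serpina10 with Serpina4-ps1, Serpina6 and Serpinh1, Serpina1b with Serpina3i, and Serpinf1 with Serpinf2. Serpina10 with Serpina12 then had r = 0.65 and with Serpina3n -0.59.

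A common measure of RNA integrity moved with several members within HFD, the 3′ minus 5′ signal of the actin control probe sets. Its r within HFD was -0.92 for Serpina10, -0.85 for Serpinh1, -0.76 for Serpina6 and Serpina11, -0.73 for Serpina4-ps1, -0.67 for Serpina12 and 0.82 for Serpina3n. Within MSXH the same values were -0.06, -0.12, -0.27, -0.11, -0.19, -0.51 and 0.06. Serpinb6a, with -0.61 in HFD and -0.72 in MSXH, was alike in both, and Serpinc1 had -0.51 and 0.71. Over both diets Serpinb6a had -0.66, the largest in size of the 22 members, Serpina12 -0.59, Serpina10 -0.54 and Serpina3n 0.53. Thus no member reached an absolute r of 0.7 over both diets, as 0.563% of genes tested did. That share is for both diets together and gives no background for the values within HFD. The part of this actin signal in the co-variation was not tested.

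Members were then set against 18 anchor genes for known sources of variation between livers, 396 pairs in all. Of these, 18 reached 0.7 and 40 had an adjusted permutation p under 0.05. The share of all genes at 0.7 is given below for each anchor. No such share was computed for the adjusted p, so the 40 is not read as a result about serpins. Hsd3b5, a steroid dehydrogenase of male liver that depends on growth hormone, was the anchor with the most members. It reached 0.7 with 6 of the 22 members (Serpina10, 12, 6, h1, 4-ps1 and f1), all positive, against 7.29% of all genes. With Serpina10 r was 0.91 (permutation p = 1e-05, the smallest the draws can give, adjusted 0.00066), rho was 0.92 (permutation p = 1e-05, adjusted 0.00198), and r was 0.95 within HFD, 0.91 within MSXH and 0.91 without the 2 farthest mice. With Serpina12 r was 0.86 (permutation p = 1e-05, adjusted 0.00066; rho 0.75, p = 0.00022, adjusted 0.0101) and 0.77 without the 2 farthest mice. With Serpina6 r was 0.85 (permutation p = 1e-05, adjusted 0.00066; rho 0.84, p = 3e-05, adjusted 0.00396) and 0.81 without them.

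Serpina4-ps1, at r = 0.71 with Hsd3b5, had r = 0.89 with both growth hormone feedback genes. Socs2, which damps the growth hormone receptor, had r = 0.89 with it (permutation p = 1e-05, adjusted 0.00066; rho 0.91, p = 1e-05, adjusted 0.00198), and Cish, of the same family, had r = 0.89 (permutation p = 1e-05, adjusted 0.00066; rho 0.79, p = 5e-05, adjusted 0.00396). Both were 0.92 within MSXH, 0.86 and 0.87 within HFD, and 0.85 without the 2 farthest mice. No other member reached 0.7 with either, and 0.964% of all genes did with Socs2 and 0.904% with Cish. As 4 mice stood apart at the top of Serpina4-ps1, r was taken again over the other 16, a choice made after seeing the data. It was 0.78 with Socs2, 0.78 with Cish, 0.74 with Serpina10 and 0.67 with Hsd3b5. Bcl6, a repressor in the same pathway, reached 0.7 with 0 members and with 0.188% of all genes. Below 0.7, Bcl6 had r = -0.62 with Serpina4-ps1 (adjusted permutation p 0.0439) and a rho of -0.56 (adjusted 0.087).

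**Figure D5:**
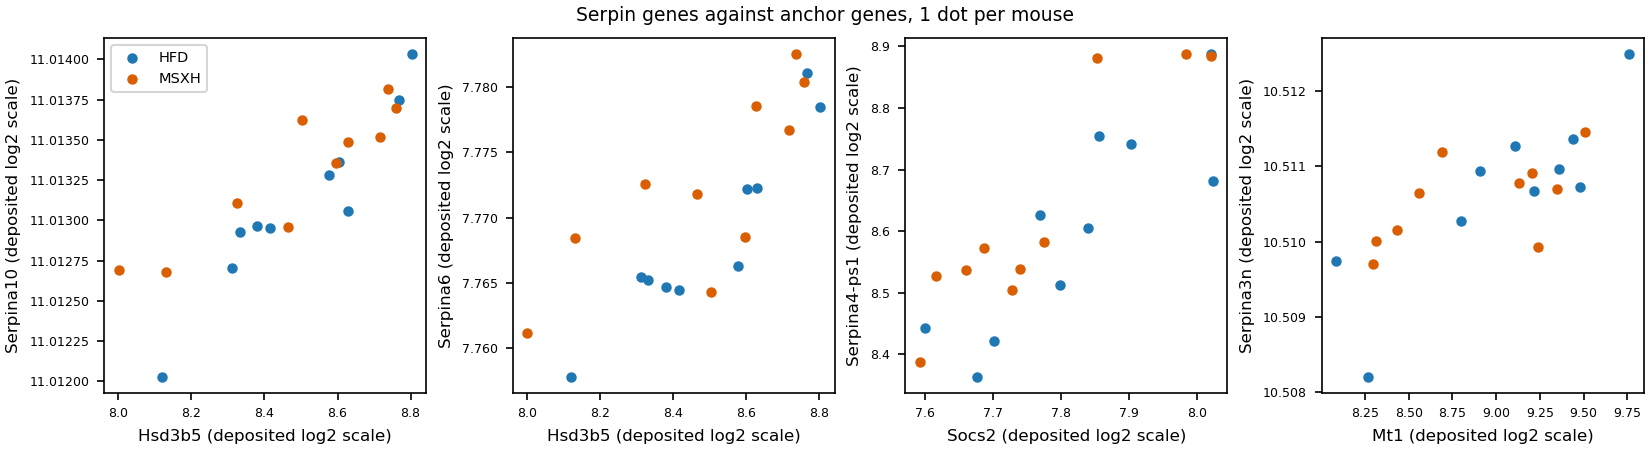
Level of a Serpin gene (y axes) against that of an anchor gene (x axes), deposited log2 scale, 1 dot per mouse, HFD blue and MSXH orange. Serpina10 and Serpina6 rise with Hsd3b5 (r = 0.91 and 0.85), Serpina4-ps1 with Socs2 (0.89) and Serpina3n with Mt1 (0.75).

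Glucocorticoid- and metal-induced genes had negative r with some cluster members and positive r with Serpina3n. Mt1, metallothionein, had r = -0.81 with Serpina10 (permutation p = 1e-05, adjusted 0.00066; rho -0.80, p = 5e-05, adjusted 0.00396), -0.79 with Serpina6 and with Serpinh1, and 0.75 with Serpina3n (permutation p = 7e-05, adjusted 0.00346; rho 0.70, p = 0.00101, adjusted 0.0182), while 6.21% of all genes reached 0.7. The values were -0.74 for Serpina10 and 0.68 for Serpina3n without the 2 farthest mice, and -0.65 and 0.56 after quantile normalization. Tsc22d3, the glucocorticoid-induced leucine zipper gene, had r = 0.72 with Serpina3n (permutation p = 0.00014, adjusted 0.00462; rho 0.72, p = 0.00058, adjusted 0.0144; 0.63 without the 2 farthest mice) and -0.77 with Serpina4-ps1 (permutation p = 8e-05, adjusted 0.00352), and 2.23% of genes reached 0.7. For Serpina4-ps1 rho was -0.62 (permutation p = 0.00493, adjusted 0.0626), and r over the 16 mice was -0.49. Fkbp5, induced by glucocorticoids, had r = -0.72 with Serpina6 (permutation p = 0.00032, adjusted 0.00845; rho -0.60, p = 0.00607, adjusted 0.0687), with 4.36% of genes past 0.7.

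The acute-phase anchors Saa1, Saa2 and Orm2 reached 0.7 with 0 members, and with 0.111%, 0.162% and 0.171% of all genes, so that 0 of 22 is no result about serpins. Serpina3n, itself known as an acute-phase gene, had r = 0.26 with Saa1 (permutation p = 0.265, adjusted 0.55; rho 0.31, p = 0.178, adjusted 0.477). The clock genes Dbp, Nr1d1 and Arntl and the fasting genes Igfbp1 and Pck1 also reached 0.7 with 0 members, and with 0.418%, 0.145%, 0.605%, 0.546% and 1.39% of all genes. Below 0.7, Pck1 had r = -0.69 with Serpina6 (adjusted permutation p 0.0125) and -0.64 with Serpinh1 (adjusted 0.0284). By rho these were -0.62 (adjusted 0.0584) and -0.32 (adjusted 0.47). Arntl had r = -0.55 with Serpina10 (adjusted permutation p 0.085) and a rho of -0.66 (adjusted 0.0295).

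Markers of other liver cells moved with some members. Col3a1, a fibrillar collagen, had r = 0.76 with Serpinh1 (permutation p = 0.00014, adjusted 0.00462; rho 0.71, p = 0.00065, adjusted 0.0147; 0.65 without the 2 farthest mice) and 0.74 with Serpina6, and 2.96% of genes reached 0.7. Serpinh1 reached 0.7 with 3 of the 6 stellate cell markers tested, Lrat (0.86), Col3a1 and Reln (0.71), with a median of 0.67 over the 6. The share of all genes that reached 0.7 with Serpinh1 was not computed. After quantile normalization Lrat had 0.68 and Col3a1 0.64. Col1a1 lay below the filter at 6.37. The summed stellate level ran from 58.6147 to 58.7146 in HFD and from 58.6144 to 58.7526 in MSXH. Col3a1 alone ran from 7.355995 to 7.454267 in HFD and from 7.356337 to 7.492619 in MSXH. The range of the sum was thus close to that of this 1 gene. The same stellate markers had a median r of 0.60 with Serpina10 and 0.60 with Serpina6. Serpinh1 also had a median r of 0.50 over the 7 Kupffer cell markers and -0.56 over the 7 hepatocyte markers. For Serpina10 these medians were 0.51 and -0.52. The 7 endothelial markers were split: with Serpina10, Kdr had r = 0.79 and Lyve1 -0.53, and the median over the 7 was -0.04.

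Cd68, a macrophage gene, had r = 0.73 with Serpina6 (permutation p = 0.00037, adjusted 0.00916; rho 0.80, p = 7e-05, adjusted 0.00462; 0.67 without the 2 farthest mice), and 3.87% of genes reached 0.7. Clec4f, of Kupffer cells, reached an r of 0.7 with 0 members and 1.08% of genes. Below it, Clec4f had r = 0.66 with Serpinb6a (adjusted permutation p 0.0278) and a rho of 0.72 (adjusted 0.0137). Over all 7 Kupffer cell markers the median r was 0.51 with Serpina10, 0.52 with Serpina6 and 0.59 with Serpina12, and their sums ran from 57.8730 to 57.8816 in HFD and from 57.8704 to 57.8809 in MSXH. The 7 hepatocyte markers had a median r of -0.52 with Serpina10, -0.60 with Serpina6, -0.25 with Serpina12 and 0.43 with Serpina3n. With Serpina10, Cps1 (-0.80), Tat (-0.68), Apoa1 (-0.59) and Hnf4a (-0.52) had negative r, and Apob (0.15), Alb (0.02) and Ttr (0.00) had r near 0. Their sums ran from 94.3757 to 94.4541 in HFD and from 94.3837 to 94.4458 in MSXH. The part of cell makeup in the co-variation was not tested.

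The genes most like each of the 3 most variable members, by absolute rho among 11728 genes over 20 mice, did not recur from 1 member to the next. For Serpina4-ps1 they were Slc25a30 (rho 0.94), Onecut1 (0.93), Abhd17b (0.91), Socs2 (0.91) and Inpp5b (-0.89). Onecut1 encodes a liver transcription factor and Slc25a30 a mitochondrial carrier. For Serpina12 they were Adhfe1 (0.91), AW112010 (0.91), Acsm1 (0.91), Hint3 (0.91) and Iyd (0.90), of which Acsm1 encodes an acyl-CoA synthetase and Iyd a deiodinase of iodotyrosine. For Serpina6 they were the glycolytic enzyme gene Tpi1 (-0.94), the vitamin B kinase gene Pdxk (0.93), Abca8a (0.92), Lgals1 (0.92) and Adgrv1 (0.92).

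The proteases and partners that serpins meet in blood and tissue were taken as a list of their own. Of 60 listed genes 50 were tested, 25 higher and 25 lower in MSXH, with a median g of -0.00135. Target proteases and their receptors split 12 to 14, cofactors and clearance receptors 5 to 3, and other inhibitors 8 to 8. None of the 50 passed adjustment, and Tfpi, the tissue factor pathway inhibitor, alone had an unadjusted limma p under 0.05 (g = -0.938, -1.86 to -0.0142, p = 0.0387, adjusted limma p 0.9998, against the 3.62% of all genes). Next were the neutrophil protease Prtn3 (g = 0.858, unadjusted limma p = 0.056), the growth factor activator Hgfac (0.705, p = 0.111) and the complement protease Masp2 (-0.708, p = 0.111).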

How the data were processed

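Liver RNA of 20 mice was hybridised to 1 array each from 200 ng total RNA with a 3′ IVT kit, per the labels' protocols. The authors deposited a value table of 45101 probe sets, read here as log2 from its range (5.20 to 14.96). How they were background-corrected, normalized and summarised is not given in the sources used here. Controls (64) were left out. The platform annotation names a single gene for 34945 probe sets, and all 40 members matched the reference gene table by gene number. Diets were compared with limma 3.58.1 (R 4.3.3; lmFit, eBayes) over 11728 genes, 2-sided, without a block. Replicate numbers gave no pairing. Correlations used NumPy 2.4.6 and SciPy 1.17.1 with Benjamini-Hochberg adjustment over each family of pairs. Named were the listed liver serpins, members at an unadjusted p under 0.05, the 6 of largest range, the 6 strongest pairs, and for the 3 most variable members the 5 genes most like each. Of the partners, the 4 with the smallest p were named. Other members and markers named beside counts were chosen after their values were seen. The members and lists were chosen with earlier results of these data known. Procedures were tested on simulated data. Alternatives covered scaling, filter, probe set, variance model, weights, block, test and leaving out each mouse. The number of arrays limits the precision.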

Additional observations from a re-analysis of the deposited data

Results flagged for a closer look

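In 2 of 48 sets of 10 mice (the 22 members tested with Serpinb2 and Serpinb9g, in each diet), an extreme mouse lay far from the others, judged by its gap to the nearest mouse as a share of the whole range. Chance gives about 5% of sets, or 2.4 sets. For Serpinb6a, an intracellular inhibitor of cathepsin G, MSXH replicate 9 was the highest, with a share of 0.647. For Serping1, the C1 inhibitor, HFD replicate 3 was the highest, with a share of 0.662. Serping1 spans 7.62e-06 and Serpinb6a 8.38e-05 over all 20 mice on the deposited scale.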

How the results depend on the processing

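No setting called a gene between the diets: the count was 0 under each scaling, filter, probe set rule, variance model and test that was run, and 0 to 0 when each mouse was left out (smallest adjusted limma p 0.0765). Serpin genes at an unadjusted p under 0.05 numbered 0 except for 2 without the level filter (Serpinb2 and Serpinb9g) and 0 to 1 when each mouse was left out, the 1 being Serpinb9 without MSXH replicate 6. Genes at that p numbered 46 with arrays shifted to a common median, 128 after quantile normalization, 197 above the 75th percentile of level and 599 with array weights. The count of Serpin pairs at an absolute r of 0.7 depended on the scaling: it was 10 as deposited, 75 with arrays shifted to a common median, and 2 of 136 after quantile normalization, which left 5 members constant (Serpina1b, Serpina1c, Serpinc1, Serpinf1 and Serping1). The shift moves whole arrays by up to 0.000176, more than most members vary. It was 13 of 780 without the filter, 10 without removing the diet mean, 7 with Spearman's rho, and 5 (without HFD replicate 9) to 14 (without HFD replicate 7) when a mouse was left out. After quantile normalization r was 0.77 for Serpina10 with Hsd3b5 and 0.89 for Serpina4-ps1 with Socs2, but under 0.7 in size for the pairs of Serpina10 with other members, Serpina10 with Mt1 (-0.65), Serpina3n with Mt1 (0.56), and Serpinh1 with Col3a1 (0.64) and Lrat (0.68). Of the signs of g among named members, 2 of 10 turned after quantile normalization, 1 of 15 with shifted medians (Serpinf1, 0.307) and 29 of 300 when a mouse was left out. With a replicate block in the fit, 0 genes were called, 501 had an unadjusted p under 0.05, and 0 Serpin genes did. Same-numbered mice had a mean r of 0.053 (from -0.133 to 0.369) against -0.006 for other numbers, and 2 of 20 mice correlated best with their own number, so the numbers were not taken as pairs.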
